A study of Arabidopsis thaliana with 4 samples.

Results

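Features with a strongly high histone H3 score that lie outside 3 runs of generally high plates were examined on a tiling array of the Arabidopsis thaliana genome. They number 285 of 21732 measured features. They were chosen by the measured values themselves, as follows. Each replicate's score was centred on its own array median, the replicates were averaged, and a feature was kept when its mean was at least 0.5 score units above the median and both replicates were above 0. Plates TA22 to TA28, TA35 to TA51 and TC17 to TC30, which hold 3287 features (15.1%), were left out. In those plates 1160 features (35.3%) reach the same level. Outside them 18445 features in 194 plates remain, of which the 285 make up 1.55%. A count or level of these features therefore describes them and tests nothing.

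The samples were untreated seedlings of ecotype Col-0, labelled 10 day old and grown in liquid MS 0.5X, so each score is an average over all the cells of whole seedlings. DNA precipitated with an antibody against H3 (vendor label Upstate) was hybridised against its own input DNA, without a mutant, a treated group or a precipitate with another antibody. The 4 arrays are 2 replicates of this 1 group, each as a dye-swap pair. Values do not differ within a pair at any of the 21732 features, so n = 2 and the number of arrays limits the precision.

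Histone H3 is one of the core histones around which DNA is wrapped in the nucleosome. An antibody that recognises H3 whatever its modifications is used to follow how densely a stretch of DNA is packed with nucleosomes. In plants the condensed chromatin near centromeres is rich in nucleosomes, while the start sites of active genes are commonly poor in them.

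The deposited score is taken to be a log ratio of precipitate and input. No source used here gives its base or its numerator, so "high" means a score above the array median and carries no direction for H3. Features bear plate and well codes (TA01A08 is read as plate TA01, row A, well 8). The files pair them with no gene or position, and 0 of the 285 codes matched the gene table of assembly TAIR10.1, so the features are described by their place in code order. A stretch is a set of successive listed wells of a plate that all belong to the 285. Replicate 2 had a wider spread than replicate 1 (SD over all features 0.39 and 0.25 units).

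The 285 features ran from 0.50 to 1.62 units in the mean of the replicates, with a median of 0.58, so most lay just past the limit. In replicate 1 they ran from 0.13 to 1.39 with a median of 0.45, and in replicate 2 from 0.33 to 1.84 with a median of 0.74. Of the 285, 163 (57.2%) were between 0.5 and 0.6, 52 between 0.6 and 0.7, 31 between 0.7 and 0.8, 27 between 0.8 and 1, and 12 at 1 or more. Counts declined evenly across the limit. Outside the runs 187 features lay from 0.4 to 0.45, 147 from 0.45 to 0.5, 100 from 0.5 to 0.55 and 63 from 0.55 to 0.6. The limit thus cuts a continuous tail.

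Just inside the limit were TA19C12 (replicate 1 at 0.26, replicate 2 at 0.74), TA71H04 (0.57 and 0.43) and TA89C05 (0.42 and 0.58), all with a mean of 0.50. Just outside it were TA01B09 (0.54 and 0.46), TB78E09 (0.34 and 0.66) and TA19D06 (0.35 and 0.64), whose means also round to 0.50. Features on the opposite sides of the limit cannot be told apart by their values. With limma's moderated test over all measured features and Benjamini-Hochberg adjustment at 0.05, 17.0% of features were called above the median. All 285 were among them, which follows from the choice, since the smallest mean called was 0.26 and the SE of a mean was 0.11.

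Within the set, replicate 2 led by less among the highest features, many of which were in plate TA01. Some high features of other plates rested mainly on replicate 2, as most of the lower ones did. Replicate 2 exceeded replicate 1 by a median of 0.30 units among features with a mean under 0.6, and by 0.10 among the 39 features with a mean of 0.8 or more. These differences are signed, so they do not give the distance between the replicates. Both replicates reached 0.5 at 115 features, replicate 2 alone at 165 and replicate 1 alone at 5. Replicate 1 was the higher one at 33 features (11.6%), in 15 plates. Of these, 9 were in plate TA01, 4 in TA53 and 3 each in TA21 and TA70. In TA53 these were the pairs TA53B09 (0.71 and 0.70) and TA53B10 (0.72 and 0.63), and TA53H11 (0.64 and 0.53) and TA53H12 (0.63 and 0.47), which are all the strongly high features of that plate. At 26 features the replicates were more than 0.5 units apart.

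**Figure D1:**
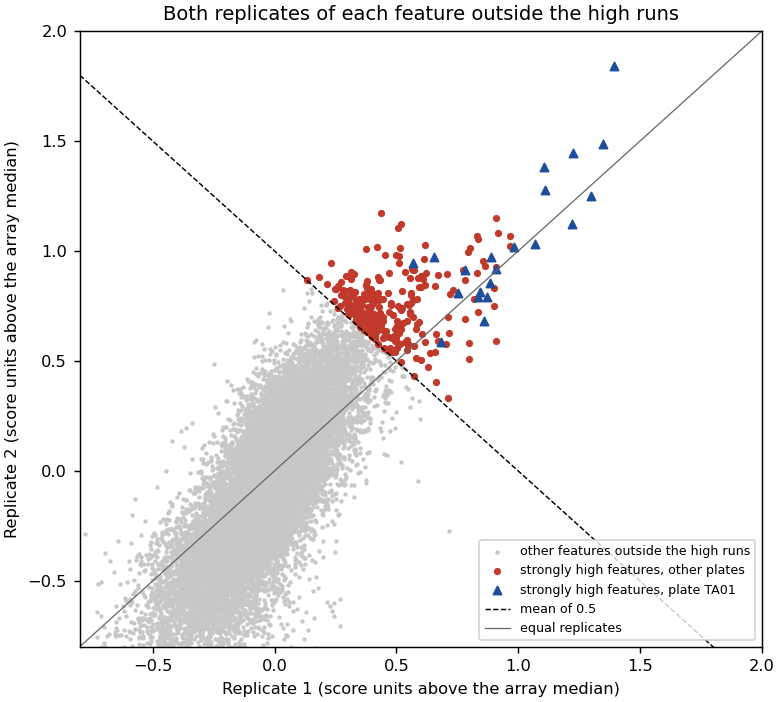
Replicate 1 (horizontal) against replicate 2 (vertical) for the features outside the high runs, in score units above each array median. Grey points are other features, red points and blue triangles the 285 strongly high ones, the dashed line is a mean of 0.5 and the solid line equal replicates. The triangles of plate TA01 follow the solid line up to 1.39 and 1.84, and most red points lie above that line. Features under -0.8 are not shown.

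A choice made on 1 replicate can be read in the other one. Outside the runs, 136 features reached 0.5 in replicate 1, and in replicate 2 their median was 0.75 units. Of them 134 (98.5%) were above 0 and 115 (84.6%) reached 0.5 in replicate 2, against 44.2% and 4.14% of all 18445 features. Conversely, 763 features reached 0.5 in replicate 2, with a median of 0.31 in replicate 1. There 748 (98.0%) were above 0, while 115 (15.1%) reached 0.5, against 44.5% and 0.74% of all features. The side of the median was thus nearly always shared. The 84.6% and 15.1% count the same 115 features and differ only in their base, 136 or 763 features. That base was larger in replicate 2, which had the wider spread. With 1 replicate left to read, these shares have no test.

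The features were unevenly spread over the plates. They occurred in 71 of the 194 plates and were missing from 123. A single one was found in 31 plates, 2 to 4 in 19 plates, and 5 or more in 21 plates, which together held 201 features (70.5%). The 10 richest plates held 134 (47.0%). TB25 had 25 of its 96 features in the set and TA01 had 21 of 96. They were followed by TA57 with 16, TA59 with 14, TA29 and TA52 with 11 each, TA63 and TA54 with 10 each, and TA21, TA58 and TA70 with 8 each.

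Plates TA52 to TA71 were the richest larger region, with 107 of 1920 features (5.57%) in 15 of 20 plates. They follow the run TA35 to TA51 in code order. TA29 to TA34, between the runs, held 21 of 554 features (3.79%), and TA01 to TA21 held 45 of 2002 (2.25%). The share was 1.21% in TB00 to TB49 (58 of 4795), 0.89% in TA72 to TA99 (24 of 2682) and 0.46% in TB50 to TC13 (28 of 6080). The PD and TD plates had 2 of 412 features, both in PD01. The split at TA71 was made after the counts had been seen.

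The richest regions, TA52 to TA71, TA29 to TA34 and TA01 to TA21, were raised little as a whole. The median over all features was -0.0087 units in TA52 to TA71, 0.021 in TA29 to TA34 and -0.012 in TA01 to TA21. Each was above the -0.035 over all features outside the runs. Of the 71 plates with a strongly high feature, 36 had a plate median below 0, but they held just 88 of the 285. Most of the 285 thus lay in plates with a median above 0, but these medians include the strongly high features themselves. Among the richest of these plates, the median without them fell below 0 in TA01 (-0.0019), TA57 (-0.053) and TA52 (-0.022). It stayed above 0 in TB25 (0.25) and TA29 (0.15). Plate TA59 was a case below 0, with a median of -0.0032 in the mean of the replicates (-0.013 in replicate 1 and -0.0073 in replicate 2). It had 14 strongly high and 7 strongly low features (a mean of -0.5 or less, both replicates below 0). Plate TA57 had 16 strongly high and 3 strongly low features at a median of 0.036 (-5.28e-06 in replicate 1 and 0.084 in replicate 2). Its strongly high features formed 7 stretches of at most 3 wells. Plate TB25 differed, with 0 strongly low features and a median of 0.37 (0.26 in replicate 1 and 0.47 in replicate 2). Its 71 other features still had a median of 0.25.

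**Figure D2:**
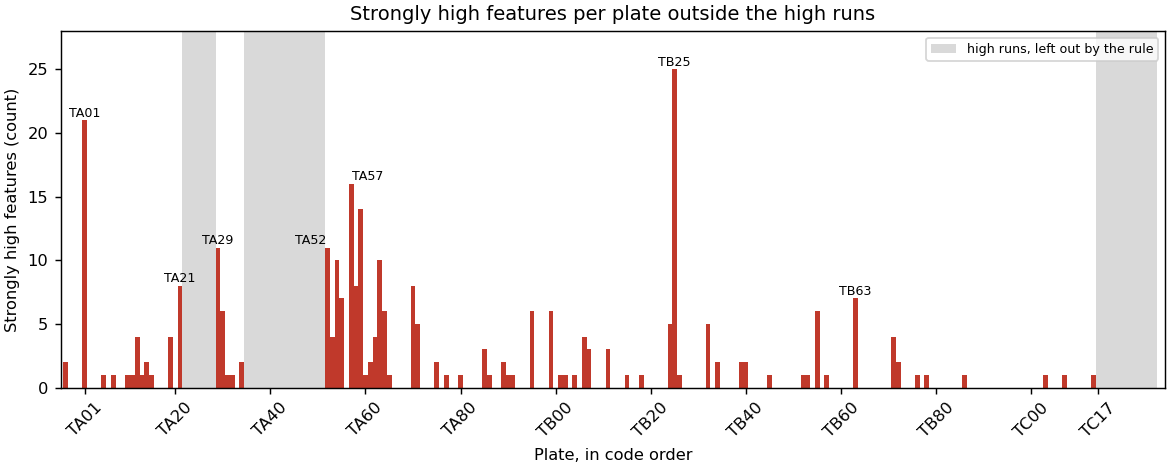
Number of strongly high features in each plate (bars, vertical axis a count) in code order (horizontal axis). Grey bands are the high runs, which the choice leaves out. TB25 with 25 and TA01 with 21 stand out, and plates after TA51 form the broadest group.

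Among plates that border the first 2 runs, all 4 had a higher share than the rest, TA34 by the least. TA21, TA29, TA34 and TA52 together had 32 of 359 features in the set (8.91%), against 1.40% in the other plates outside the runs. Since the limits of the runs had been drawn on the same values, this contrast follows in part from where they were drawn. TA21 had 8 (8.89%), TA29 had 11 (14.3%), TA34 had 2 (2.08%) and TA52 had 11 (11.5%). The codes directly beside the run TC17 to TC30 are not listed. The nearest listed plates, TC13 with 1 of 34 and TD01 with 0 of 96, are counted among the others. In 1 case the high stretch itself passed over the limit of the run. Wells TA51H09 to TA51H12, inside the run, and TA52A01 to TA52A05, outside it, formed 9 successive wells at 0.5 or more, between -0.061 in TA51H08 and 0.16 in TA52A06. Replicate 1 read 0.77, 0.91, 0.97, 0.90 and 0.57 in TA52A01 to TA52A05, and replicate 2 read 0.91, 1.15, 1.07, 0.83 and 0.57. The highest value was in TA52A03 in replicate 1 and in TA52A02 in replicate 2.

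In code order the 285 features formed 152 stretches. Of these, 94 were single features (33.0% of the 285), 28 were pairs, 15 had 3 members and 15 had 4 or more. The 15 long stretches held 90 features (31.6%) and lay in 15 plates, 12 of them TA plates and 3 TB plates. No stretch continued from one plate into the next where both plates were outside the runs. Strongly high features inside the runs stood alone less often (8.79% of 1160) and formed stretches of up to 52 wells. The 684 strongly low features outside the runs stood alone more often (60.7%), were spread over 171 plates and formed stretches of at most 5 wells. These shares are descriptions, since the sets were chosen on the same values. They are also not compared at equal density, as 35.3% of features inside the runs and 1.55% outside were strongly high.

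The longest stretch was the first 19 wells of plate TA01, from A01 to B07. It had a mean of 1.0 in replicate 1 and 1.05 in replicate 2 (1.03 ± 0.034, SD, n = 2), and it held 8 of the 10 highest features of the set. TA01A08 read 1.39 and 1.84 in replicates 1 and 2, TA01A09 read 1.35 and 1.49, and TA01A10 read 1.23 and 1.45. In TA01A04 to TA01A07 replicate 1 read 1.11, 1.22, 1.30 and 1.11, and replicate 2 read 1.28, 1.12, 1.25 and 1.38. TA01A12 was at 1.07 and 1.03. The level climbed from 0.77 in TA01A01 to 1.62 in TA01A08 and declined to 0.63 in TA01B07. The next well, TA01B08, was at 0.22 and 0.21, and the median of the 5 wells after the stretch was 0.21. Replicate 1 was the higher one in 9 of the 19 wells, unlike the set as a whole. The other 2 strongly high features of TA01 stood apart from this stretch, and the median of the 75 features of the plate outside the set was -0.0019.

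The second longest stretch, TA70C09 to TA70D04, had 8 wells with a mean of 0.69 in replicate 1 and 0.74 in replicate 2 (0.72 ± 0.032, SD, n = 2). Its wells were less even than these means: the replicates were up to 0.44 units apart, and replicate 1 was the higher one in 3 of the 8 wells. It peaked in TA70D02 at 0.995. The well before the stretch was at -0.41 and the well after it at 0.44. The 7 wells TA21E02 to TA21E08 had a mean of 0.74 and 0.88 (0.81 ± 0.093, SD, n = 2) and peaked in the middle, in TA21E05, at 1.0. The wells beside them were at 0.15 and -0.057. In TA58C06 to TA58C10 the replicate means were 0.65 and 0.90 (0.77 ± 0.18, SD, n = 2), with flanks at -0.18 and 0.039. In TA55G02 to TA55G07 they were 0.52 and 0.71 (0.62 ± 0.13, SD, n = 2), with flanks at -0.035 and -0.11. The stretches in TA21, TA58 and TA55 thus stood as islands between wells at 0.15 or less.

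Other long stretches were parts of wider raised ground. TB63E10 to TB63F04 had 7 wells at 0.51 and 0.76 (0.63 ± 0.18, SD, n = 2) between flanks of 0.26 and 0.49. TA59G01 to TA59G05 had 5 wells at 0.40 and 0.82 (0.61 ± 0.30, SD, n = 2) between flanks of 0.27 and 0.45. TB55G04 to TB55G07 had 4 wells at 0.27 and 0.84 (0.56 ± 0.40, SD, n = 2) between flanks of 0.37 and 0.36. TA54H06 to TA54H09 and TA99C12 to TA99D03, of 4 wells each, had raised ground on 1 side at most: the first read 0.61 and 0.76 (0.68 ± 0.11, SD, n = 2) between flanks of 0.47 and -0.11, and the second 0.47 and 0.96 (0.72 ± 0.35, SD, n = 2) between flanks of 0.13 and -0.49. Over the 15 long stretches the SD between replicates ran from 0.032 to 0.42, and both replicate means reached 0.5 in 8 of them. The widest gap was in TA29B12 to TA29C03, at 0.26 in replicate 1 and 0.85 in replicate 2.

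**Figure D3:**
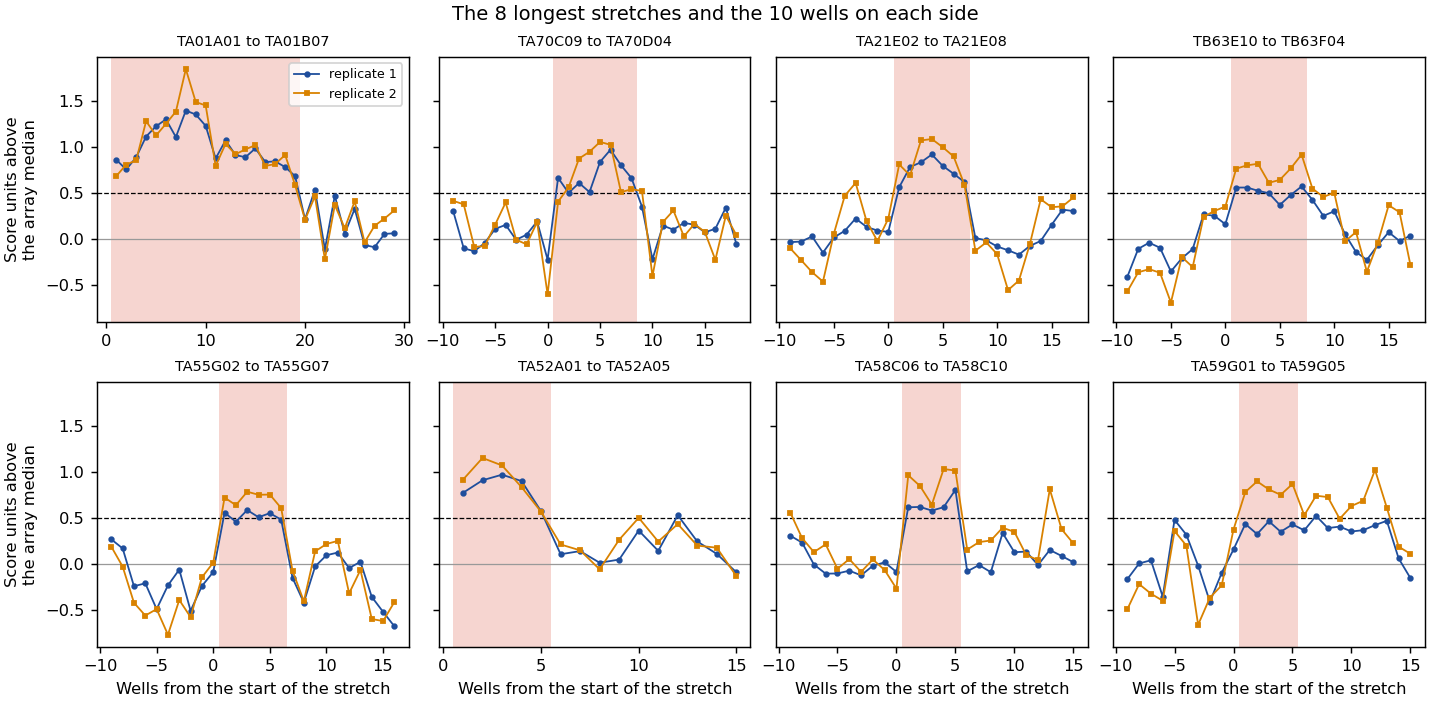
Scores in replicate 1 (blue) and replicate 2 (orange) over the 8 longest stretches, shaded, and up to 10 measured wells of the same plate on each side. The horizontal axis counts wells from the start of the stretch, the vertical axis is in score units above the array median, and the dashed line marks 0.5. The stretches in TB63, TA59, TA55 and TA58 show replicate 2 above replicate 1 in every shaded well. In those of TA01, TA70, TA21 and TA52 the lines cross.

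The wells directly beside a stretch were mostly raised as well, but not all. A measured neighbour in the same plate was present on 291 of 304 sides. Its median was 0.21 units in replicate 1, 0.40 in replicate 2 and 0.31 in the mean. It was at 0.25 or more on 172 sides (59.1%), compared with 9.96% of all features outside the runs. It was below 0 on 50 sides (17.2%), compared with 55.2%. By definition such a neighbour is under 0.5, and none was at -0.5 or less.

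Around single features the raised level faded over a few wells. The median was 0.31 next to the feature, 0.14 at 2 wells, 0.082 at 4 wells and 0.031 at 8 wells. Around stretches of 2 or 3 it was 0.37 at 1 well, 0.21 at 4 and 0.14 at 8. Several of these stretches were close together in the raised plate TB25, where a well between neighbouring stretches counted for both. Around stretches of 4 or more the median did not fall steadily: it was 0.15 at 1 well, 0.073 at 3, 0.16 at 4, -0.032 at 8 and 0.14 at 9. These medians rest on 26 to 28 wells per distance, with quartiles of -0.070 and 0.44 at 1 well. They do not show that long stretches are more sharply bounded. Wells at a distance include members of other stretches, for example 15 of the 176 wells at 2 wells from a single feature.

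**Figure D4:**
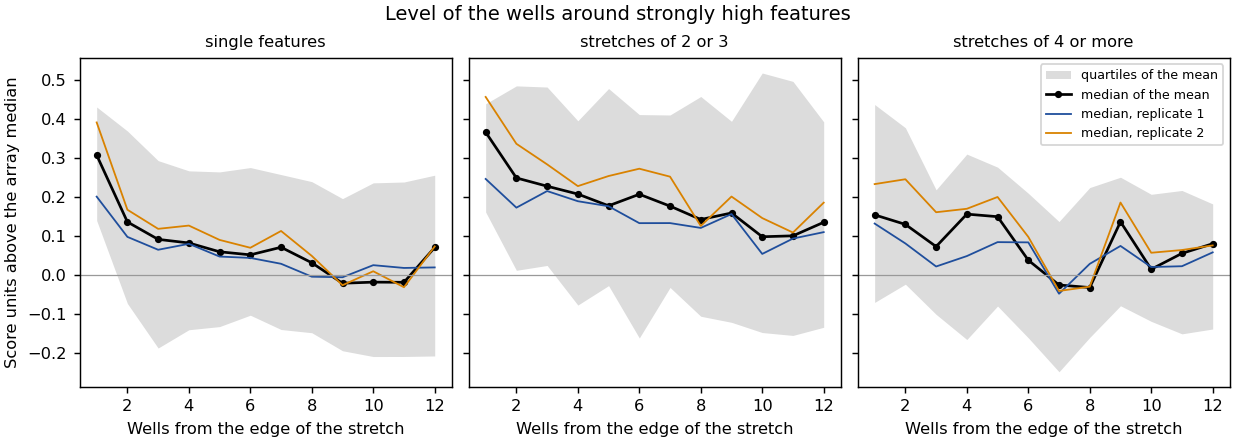
Median score of the wells at 1 to 12 wells from the edge of a stretch (black), its quartiles over wells (grey band) and the median in each replicate (blue and orange), in score units above the array median. The panels show single features, stretches of 2 or 3 and stretches of 4 or more. The black line falls from 0.31 at 1 well to 0.031 at 8 wells around single features, and from 0.37 to 0.14 around stretches of 2 or 3.

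The surroundings differed widely between stretches. Taking the median of up to 5 measured wells on each side, 50 of the 152 stretches (32.9%) lay in ground at 0.25 or more, 69 (45.4%) between 0 and 0.25, and 33 (21.7%) at or below 0. Among the 94 single features these surroundings ran from -0.46 to 0.55. A single feature was part of a row of at least 3 wells at 0.25 or more in 51 of 94 cases, and had no adjoining well at that level in 17.

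Joined at 0.25 or more, and over changes of plate, the 285 features fell into 125 blocks. Of these, 17 were a single well, 67 had 2 to 4 wells, 32 had 5 to 9 and 9 had 10 or more. The 9 widest blocks held 76 features (26.7%). Outside the runs there were 990 blocks at this level, and each of the 9 with at least 10 wells held a strongly high feature.

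The widest block was TB24G08 to TB25B11, with 40 successive wells over a change of plate. It had a mean of 0.33 in replicate 1 and 0.60 in replicate 2 (0.47 ± 0.19, SD, n = 2), and 33 of its wells were at 0.25 or more in both replicates. Of the 40 wells, 16 belonged to the set, and the highest was at 0.62. Levels that alternated about the limit, rather than 1 peak, gave TB25 its large number of members: its 25 features formed 15 stretches, none longer than 2. From TB25A12 to TB25B10, pairs of members alternated with single wells at 0.39, 0.44 and 0.37. In TB25 the pair TB25E06 (0.57 and 0.91) and TB25E07 (0.51 and 1.01) were the highest, and they are its only features with both replicates at 0.5 or more. TB25G02, at 0.18 and 0.88, rested on replicate 2.

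The next widest blocks were in TA01 (19 wells, all in the set), TA63A09 to TA63C02 (18 wells, 7 in the set, 0.36 and 0.65 in replicates 1 and 2) and TA59F12 to TA59H01 (14 wells, 10 in the set, 0.39 and 0.71). TB63E07 to TB63F07 had 13 wells, 7 of them in the set, at 0.40 and 0.59. TA01 stands apart from these in level: its block mean was 1.03, and those of the other 3 were 0.51, 0.55 and 0.50.

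**Figure D5:**
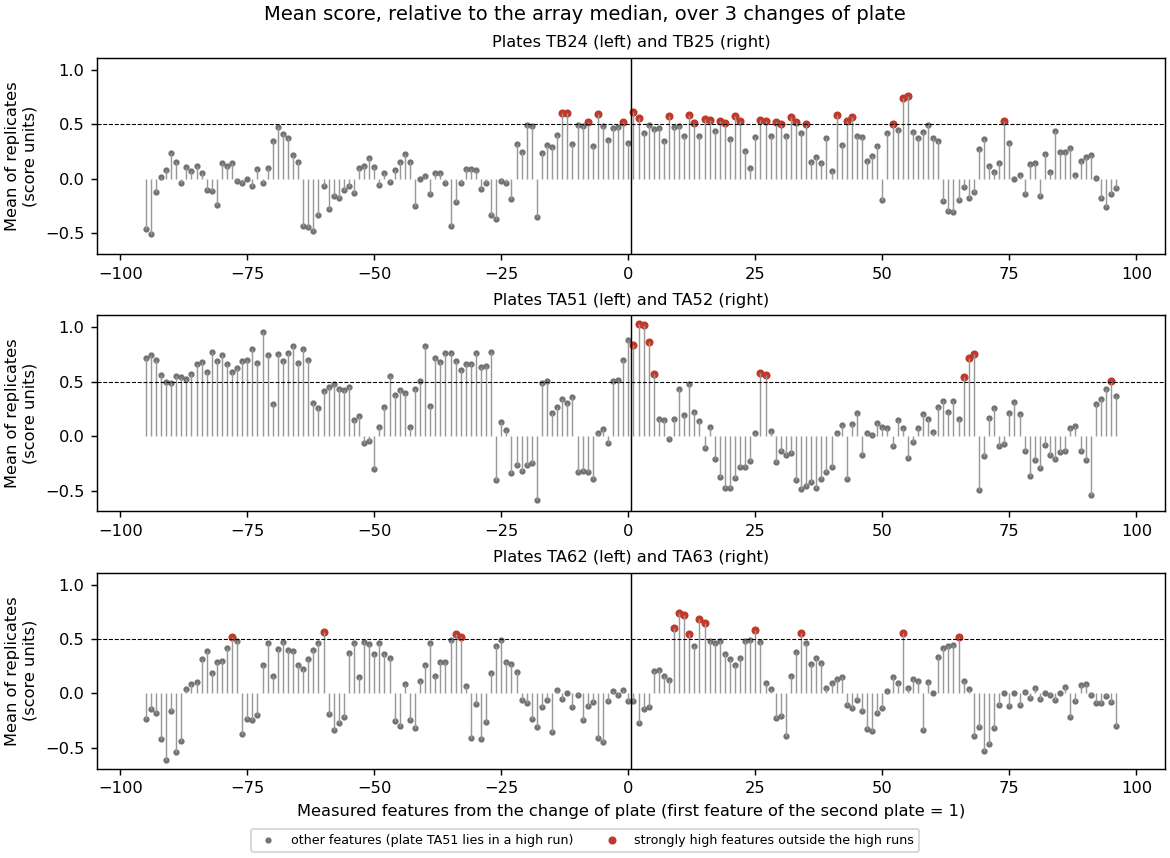
Mean of the replicates, in score units relative to the array median (vertical), for the measured features of 2 successive plates in code order (horizontal, counted from the change of plate). Red points are strongly high features outside the runs, grey points all others, and the dashed line marks 0.5. The block of 40 wells spans the change from TB24 to TB25 with levels on both sides of 0.5. The stretch at the start of TA52 continues one at the end of TA51, and TA63 shows a block of 18 wells.

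Some strongly high features dropped to a clearly low value in the next well. The largest drop was from TA99D03, at 0.81, to TA99D04, at -0.28 in replicate 1 and -0.69 in replicate 2, a step of 1.29 units in the mean. It was the end of the 4-well stretch TA99C12 to TA99D03. Next came the step of 1.25 from TA52F08 (0.75) to TA52F09 (-0.49), and that of 1.23 from TB40E11 (0.82) to TB40E12 (-0.41). In these wells both replicates lay below 0. A step of at least 0.75 was seen on 33 of 291 sides, while the median step was 0.26.

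A strongly low feature lay within 2 wells of 3 of the 285 features (1.05%), within 5 wells of 23 (8.07%), within 12 wells of 63 (22.1%), and somewhere in the same plate for 210 (73.7%). Over the 17761 features outside the runs that were not strongly low themselves, the corresponding shares were 10.6%, 23.1%, 43.7% and 87.7%. Since both kinds of feature were chosen on the same scores, these shares are a description. Of the 71 plates with strongly high features, 60 (84.5%) also had strongly low ones, close to the 171 of all 194 plates (88.1%).

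Well position on the plate was not used in the choice. The share of strongly high features ran from 0.92% in row D to 2.01% in row G, and from 1.23% in well 11 to 1.95% in well 7 of a row. It was 1.36% in the outer wells (rows A and H, wells 1 and 12; 94 of 6925) and 1.66% in the inner wells (191 of 11520). Successive features of a stretch are not independent, so no test was made of these shares. Just 1 of the 285 features was next to a listed well without a value, and no stretch spanned an unlisted well.

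Compared with strongly high features inside the runs, those outside were lower and less even between the replicates. Inside the runs the median of the mean was 0.68, with 0.63 in replicate 1 and 0.76 in replicate 2, against 0.58, 0.45 and 0.74 outside. The median SD between replicates was 0.095 inside and 0.19 outside. Replicate 2 was thus nearly equal in both sets and replicate 1 was lower outside. The upper end was the reverse: the highest mean was 1.10 inside the runs and 1.62 outside, in TA01. Among regions outside, both replicates reached 0.5 at 34 of the 45 features of TA01 to TA21 (75.6%), 44 of the 107 of TA52 to TA71 (41.1%), 9 of the 24 of TA72 to TA99 (37.5%), 6 of the 21 of TA29 to TA34 (28.6%), 8 of the 28 of TB50 to TC13 (28.6%), 13 of the 58 of TB00 to TB49 (22.4%) and 1 of the 2 of PD01. In TA01 to TA21, plate TA01 supplied 21 of the 34, and without it the count was 13 of 24 (54.2%). As both sets were chosen on these values, none of this was tested.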

How the data were processed

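Per the labels' protocols, amplified DNA of H3 precipitates and inputs was labelled directly with Cy3 and Cy5. The authors deposited 1 ratio score per feature and array. No source used here gives the normalization, log base, centring, numerator or array design. The column medians were 0.23 (replicate 1) and 0.13 (replicate 2). Scanner files were not analysed here. Of 21800 listed features, 68 had no value, 39 of them with names that are not plate and well codes.

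The replicates come from the labels (I and II, called 1 and 2). Nothing says whether they were separate cultures, so their spread may be technical. Dye-swap arrays were averaged, the median was subtracted per replicate, and the limits given in the report were applied. Every measured feature was tested against 0 with limma 3.58.1 (R 4.3.3) for the background share. This and the stretch code were tested on simulated data. Python 3.11.15, numpy 2.4.6, pandas 2.3.3 and matplotlib 3.10.9 did the rest.

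The set of features was chosen with earlier results of these data known. The level of 0.25 for blocks, the 5 wells of surroundings and the plate regions were chosen after seeing the data. Named features are, by a written rule, the 10 highest, those of the 10 longest stretches and 10 richest plates, the 3 on each side of the limit and the sharpest edge. The other named features, wells and stretches, such as the steps after the largest, TB25G02 and the widest blocks, were chosen after their values were seen. Alternatives covered centring, scaling, limits, plates left out, the definition of a stretch and each replicate left out.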

Additional observations from a re-analysis of the deposited data

How the results depend on the processing

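The number of features in the set (285), of stretches (152) and of plates (71) depends on the limit and on the centre. They were 1129, 601 and 169 without centring, 619, 308 and 127 with a limit of 0.4, 122, 61 and 36 with a limit of 0.6, and 115, 59 and 35 with both replicates at 0.5 or more. Without 1 replicate the features numbered 136 to 763, the stretches 70 to 404 and the plates 42 to 150, the lower values without replicate 2. The other planned settings kept these counts within 1.5 times: equal median absolute deviations gave 316 features, 274 of them shared, and centring on the features outside the runs gave 403, which include all 285. The share of features standing alone (33.0%) ran from 27.46% to 37.24% over all settings. The 136 and 763 features chosen on 1 replicate are different sets, which gave 33.09% and 32.9%. The 0.14 points (SD) between these 2 values therefore do not measure the scatter of the 33.0%. The share was 29.28% with centring on the features outside the runs, 33.3% without centring and 31.33% after scaling. It was 27.46% at 0.4, 30.33% at 0.6 and 35.65% with both replicates at 0.5. It was 35.57% without TA21, TA29, TA34 and TA52 (the codes beside TC17 to TC30 are not listed), 33.33% without TA75, TA95 and TB25, 37.24% without TA01 and TB25, and 28.07% with stretches joined across 1 well. The level beside a stretch (0.31) ran from 0.19 to 0.44 over all settings. The limma count above the median (3697) was 2163 with trend and robust variance. Without centring, the same test called 7509 features above a raw score of 0. With 1 replicate there is no test, and 1088 to 2294 features reached 0.5. No paired analysis was possible because there is 1 group.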
